A study of Mus musculus with 79 samples.

Results

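ICV leptin was compared with ICV PBS in lumbar vertebrae (LV), the red, fat-poor marrow of the spine, with both genotypes in 1 fit. The comparison used every library whose title names LV, which gave 18 of the 79 libraries of the series, 9 from leptin-treated and 9 from PBS-treated mice. All 18 mice were females of 4 to 5 months on a mixed SJLxC57BL6 background, and each received PBS or leptin at 100 ng per h into the cerebral ventricles for 9 days. Per the paper, leptin and PBS mice were pair-fed once they had recovered from surgery. The 4 groups were BMAd-Pnpla2+/+ (WT) with PBS (n = 5), WT with leptin (n = 5), BMAd-Pnpla2-/- (KO) with PBS (n = 4) and KO with leptin (n = 4). In KO mice Pnpla2, which encodes the lipase ATGL, is deleted in bone marrow adipocytes alone, so most cells of LV carried an intact gene. Caudal vertebrae (CV, fat-rich marrow) of the same 18 mice and inguinal white adipose tissue (iWAT) of the 10 WT mice served for comparison, and these libraries are not independent of the LV libraries since the mice are shared.

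Leptin is an adipocyte hormone that acts on the hypothalamus to restrain feeding and to raise sympathetic outflow, and infusion into the brain depletes body fat. Lumbar marrow of the adult mouse is a site of blood formation: most of its cells are red cell and neutrophil precursors, with B cells, some T cells, antigen-presenting cells and a stroma of bone-forming and vascular cells. Marrow fat cells are few there, whereas tail vertebrae are packed with them. The question asked of LV was what leptin changes where there is little marrow fat to lose.

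The LV libraries matched their label. The adipocyte genes Adipoq, encoding adiponectin, and Plin1, encoding the lipid-droplet coat perilipin, had medians of 1.47 and 0.91 TPM (a level corrected for transcript length and library size) in the 9 PBS libraries, with highest values of 3.08 and 2.48. The lowest CV library of PBS mice held 44.7 TPM of Adipoq and 146 TPM of Plin1, so the tissues did not overlap. The β-globin gene Hbb-bs had a median of 105909 TPM in LV, the neutrophil gene S100a8 84935 TPM, the B cell gene Cd79a 101 TPM and the bone collagen gene Col1a1 525 TPM. The muscle gene Acta1 was also present, at 180 to 642 TPM in PBS libraries, and the oligodendrocyte and Schwann cell gene Mbp at 22.2 to 69.8 TPM, so the dissected vertebrae were not marrow alone.

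**Figure D1:**
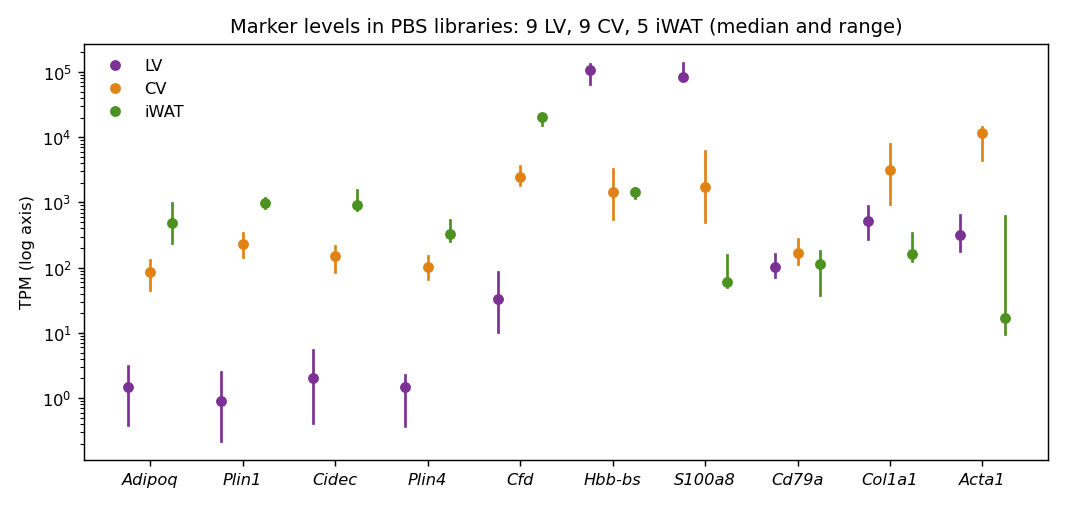
TPM on a log axis of 5 adipocyte genes (Adipoq to Cfd) and of markers of red cells, neutrophils, B cells, bone and muscle in PBS libraries of LV (n = 9), CV (n = 9) and iWAT (n = 5); points are medians and lines run from the lowest to the highest library. Adipoq reaches at most 3.08 TPM in LV and starts at 44.7 TPM in CV.

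The libraries held 28717516 to 29757254 counts each, and the mean total was 29304828 ± 339791 (SD, n = 9) with leptin and 29249369 ± 288217 (SD, n = 9) with PBS (two-sided exact permutation p = 0.7103). The targeted gene, Pnpla2, was at 17.47 to 25.8 TPM in KO PBS libraries and at 20.45 to 30.38 TPM in WT PBS libraries, which overlapped, so LV cannot serve as a check of a deletion confined to fat cells. Mouse numbers in the labels fell into 3 series, the 100s (5 leptin and 5 PBS mice), the 600s (3 and 3) and the 5000s (1 and 1), and the first principal component of LV, with 29.9% of the variance, followed these series in part: 7 of the 10 libraries of the 100s lay below every other library, and KO leptin replicate 2, WT leptin replicate 1 and WT PBS replicate 3 lay among the 600s. Each series held both treatments, but genotypes were spread unevenly. The 100s had 3 KO and 2 WT mice with leptin against 2 KO and 3 WT with PBS, the 600s 3 WT with leptin against 2 WT and 1 KO with PBS, and the 5000s 1 KO with each.

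Of 14873 genes tested, 805 (5.41%) passed an adjusted p of 0.05 for leptin against PBS in LV, of which 297 (2.00%) were higher and 508 (3.42%) were lower with leptin. The excess of falls depended on the setting. Higher and lower genes numbered 572 and 776 by DESeq2 and 577 and 926 with a mouse series term. They numbered 114 and 17 by limma on log2(TPM + 1), 46 and 8 in the 100s mice alone, and 9 and 32 in the other mice. In the fit of all 18 libraries differences were small: 81 genes (0.545%) rose and 84 (0.565%) fell by 0.5 or more on the log2 scale, together 1.11% of genes tested, and 23 changed by at least 1. TPM values of the 9 leptin and the 9 PBS libraries did not overlap at all in 22 genes that were higher with leptin (0.148% of genes tested) and in 2 that were lower (0.0134%). The median log2 fold change over all genes was −0.0022 and 49.2% of genes had a value above 0, against which the gene lists below can be read. In bulk RNA, fewer cells of a type and less RNA per cell cannot be told apart, and this holds for every list.

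Among the genes that rose, those of MHC class II, the molecules with which dendritic cells, macrophages and B cells show peptides to CD4+ T cells, moved together. Short stretches of their promoters are shown first, since the genes form 1 cluster on mouse chromosome 17 and are known to be switched on as a unit by the transactivator CIITA, which docks on promoter-bound factors that recognise a shared array of elements, among them the Y box, an inverted CCAAT sequence. Of the 8 class II genes named H2 that were tested, 7 had a promoter entry in RefSeq (GRCm38.p6, 250 bases before to 50 after the transcription start), and 6 of these 7 held TGATTGG on either strand (that is, TGATTGG or CCAATCA), against 7.82% of all 32851 promoters and 11.6% of the 11740 tested genes with an entry. The letters searched were chosen after the promoters had been read, a match is a description of the sequence only, and H2-DMa had none in this window. The 6 stretches of 87 bases run 5′ to 3′ on the strand of each gene, with TGATTGG in capitals, whose first base lay 45 to 92 bases before the transcription start.
H2-Aa: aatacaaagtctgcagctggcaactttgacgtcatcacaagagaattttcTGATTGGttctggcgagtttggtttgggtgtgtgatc
H2-Eb1: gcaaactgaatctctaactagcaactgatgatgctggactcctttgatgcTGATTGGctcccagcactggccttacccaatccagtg
H2-DMb1: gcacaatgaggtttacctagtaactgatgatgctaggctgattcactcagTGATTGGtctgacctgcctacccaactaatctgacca
H2-DMb2: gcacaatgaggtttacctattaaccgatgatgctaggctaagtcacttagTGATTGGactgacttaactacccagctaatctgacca
H2-Oa: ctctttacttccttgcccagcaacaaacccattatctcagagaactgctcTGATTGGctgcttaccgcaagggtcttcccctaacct
H2-Ob: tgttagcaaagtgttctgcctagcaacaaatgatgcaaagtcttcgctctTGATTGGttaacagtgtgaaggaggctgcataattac
In GRCm38.p6 these lie at chr17:34287837-34287923 for H2-Aa on the minus strand and, on the plus strand, at chr17:34305756-34305842 for H2-Eb1, chr17:34153078-34153164 for H2-DMb1, chr17:34145107-34145193 for H2-DMb2, chr17:34092284-34092370 for H2-Oa and chr17:34238796-34238882 for H2-Ob.

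Of 15 genes of MHC class II and dendritic cells tested, 10 rose in LV and none fell, with a median log2 fold change of 0.53. Those that rose were class II genes, Cd74, Ciita and, alone among the dendritic cell markers, Cd209a. The markers Siglech, Flt3, Zbtb46, Xcr1 and Itgax were not called. Between 8 and 10 of the 15 were called without single libraries, 8 in the 100s mice alone and 0 in the other mice, where the median was 0.305. H2-Aa, which encodes the α chain of the I-A molecule, was at 162.63, 184.62 and 229.21 TPM (lowest, median and highest of 9 PBS libraries) and at 237.38, 285.42 and 395.06 TPM with leptin. The groups did not overlap, and the log2 fold change was 0.59 ± 0.084 (SE), with an adjusted p of 0.00223 in edgeR's quasi-likelihood test. H2-Ab1, the β chain of the same molecule, rose by 0.63 with the highest PBS library at 148 TPM and the lowest leptin library at 147 TPM. H2-Eb1, a chain of the I-E molecule, rose from a median of 71.7 to 121 TPM, and Cd74, the invariant chain that guards the peptide groove during assembly, rose from 308 to 487 TPM.

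The accessory members moved by similar amounts. H2-Oa, a chain of the H2-O molecule that restrains peptide loading, was at 8.2, 9.2 and 10.63 TPM with PBS and at 11.47, 13.89 and 18 TPM with leptin (log2 fold change 0.48 ± 0.059, adjusted p = 0.000633), again without overlap. Its partner H2-Ob rose by 0.53, as did the peptide-loading chain H2-DMb2, while H2-DMb1 reached 0.32 with an adjusted p of 0.0693 and was not called. Of 7 regulators of class II transcription, chosen after the data had been seen, 4 had a log2 fold change below 0, the median was −0.04 and 2 rose, a count that was 1 or 2 without single libraries and 0 by limma on log2(TPM + 1). These were Ciita itself, from a median of 1.58 to 2.34 TPM (log2 fold change 0.62 ± 0.18, adjusted p = 0.0464), and Rfx5, a subunit of the factor bound beside the Y box, by 0.26. Ciita overlapped between groups, with PBS libraries reaching 2.57 TPM and leptin libraries starting at 1.45 TPM. Near-identical copies and strain alleles exist among the H2 genes, so the split of reads between single members is uncertain.

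T cell and NK cell genes rose as well, in 14 of 26 tested, with none falling and a median of 0.42. Cd3e, a signalling chain of the T cell receptor complex, was at 0.88, 1.24 and 1.63 TPM with PBS and at 1.76, 2.03 and 2.45 TPM with leptin. These groups did not overlap (log2 fold change 0.67 ± 0.11, adjusted p = 0.00419), nor did those of Cd3g, another chain of that complex, with a highest PBS value of 5.98 TPM and a lowest leptin value of 6.43 TPM. The co-receptor genes of cytotoxic T cells rose most, Cd8a by 0.88 and Cd8b1 by 0.96, whereas the helper co-receptor Cd4 had a log2 fold change of 0.32 and an adjusted p of 0.156. The T cell kinases Zap70 and Lck and the transcription factors Tcf7 and Bcl11b were also among the 14. Summed over the list, T and NK cell genes came to 184.2 to 241 TPM in PBS libraries and 244 to 290 TPM in leptin libraries, a minor share of the RNA in these libraries. Between 9 (without WT leptin replicate 2 or WT PBS replicate 4) and 14 of them were called when single libraries were left out, 7 by limma on log2(TPM + 1), 4 in the 100s mice alone and 0 in the other mice.

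Mature B cell genes rose in 5 of 18 and early B cell genes in 0 of 12. Log2 fold changes were above 0 in 18 of 18 mature B cell genes, with a median of 0.225. The called members were Ccr7, the receptor that guides lymphocytes to lymph nodes (0.66), the follicle-homing receptor Cxcr5 (0.58), the inhibitory receptor Cd22 (0.55), the scaffold Bank1 (0.45) and the BAFF receptor Tnfrsf13c. Cxcr5 ran from 2.14 to 5.77 TPM with PBS and from 5.33 to 8.7 TPM with leptin, an overlap at the edge. In the early list the surrogate light chain genes of pre-B cells had the lowest p: Igll1 had a log2 fold change of −0.88 and an adjusted p of 0.0653, and Vpreb1 −0.87 and 0.0724. Their PBS libraries ran from 14.3 to 69.7 TPM and from 13.6 to 74.2 TPM, so the spread among PBS mice was wide. By edgeR 0 early B cell genes were called, with 5 at an unadjusted p of 0.05, and DESeq2 called 2. Plasma cell genes were called in 0 of 10 by edgeR and DESeq2, with 1 at an unadjusted p of 0.05.

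Interferon-response genes had log2 fold changes above 0 in 22 of 22, with a median of 0.536, and 6 passed the test. These were Ddx58, which encodes the RNA sensor RIG-I, Oasl2, Oas2 and Oas1a of the 2′-5′ oligoadenylate synthetase family, Ifit3, and Irf7, the transcription factor that amplifies type I interferon. Oasl2 was at 4.27, 6.18 and 8.97 TPM with PBS and at 7.04, 10.4 and 21.1 TPM with leptin (log2 fold change 0.84 ± 0.20, adjusted p = 0.022). The number of calls depended on single libraries: 2 were left without KO leptin replicate 1 and 9 without WT leptin replicate 3, limma on log2(TPM + 1) called 0, and a mouse series term called 13. The list median came to 0.662 among 100s mice and to 0.225 among 600s mice. Outside the list, Ifi208 and Trim30d, members of interferon-inducible families with close paralogues, did not overlap between groups. They were picked from these data for that lack of overlap, so it adds no support to the list. Ifi208 was at 0.66 to 1.22 TPM with PBS and at 1.4 to 2.66 TPM with leptin (log2 fold change 0.79 ± 0.11, adjusted p = 0.00164). Its means were 0.971 and 1.79 TPM, so it met the level of 1 TPM asked of named genes only through the leptin libraries.

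**Figure D2:**
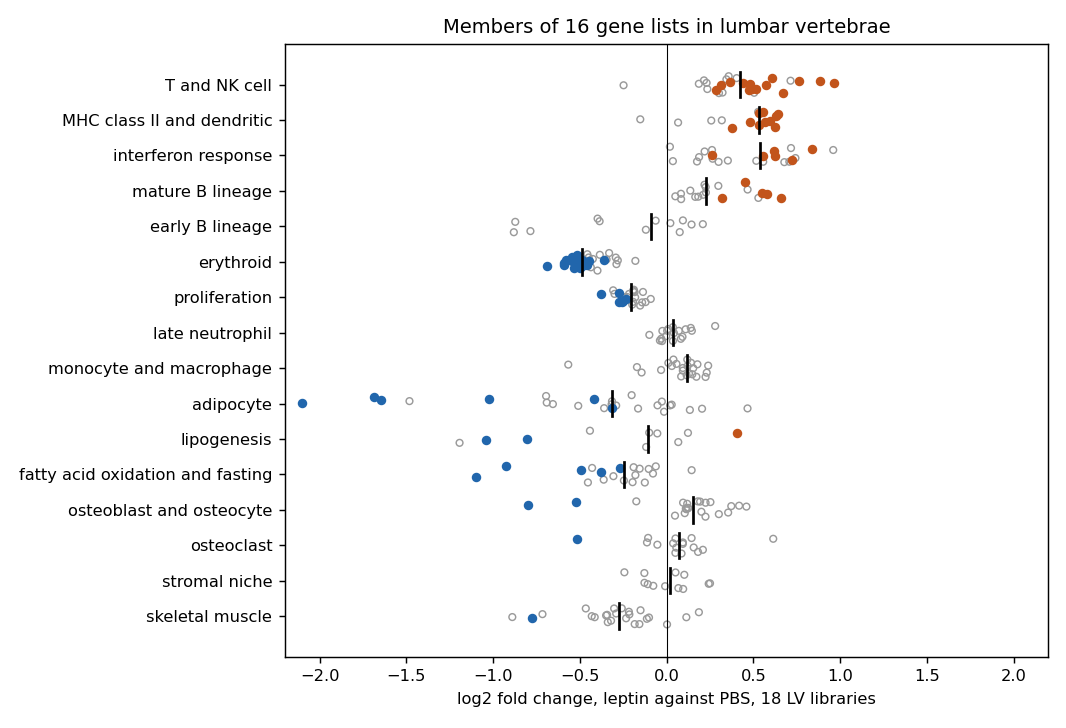
Log2 fold changes in LV (leptin against PBS, edgeR, 18 libraries) of the members of 16 gene lists; filled points passed an adjusted p of 0.05 (orange higher, blue lower), open points did not, and black bars are list medians. Lep is drawn at the left edge because its fitted value, −6.65, lies outside the axis.

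By the rule for named genes 3 further rises are given. Pctp, encoding a phosphatidylcholine transfer protein, was at 1.65, 3.74 and 4.66 TPM with PBS and at 4.9, 7.19 and 8.13 TPM with leptin (log2 fold change 0.84 ± 0.21, adjusted p = 0.0287). Amigo2, encoding a membrane adhesion protein, rose by 0.59, from at most 1.44 TPM to at least 1.51 TPM, and neither gene overlapped between groups. Gimap3, of a family of GTPases expressed in lymphocytes, rose by 0.61 with ranges that overlapped between 14.79 and 15.04 TPM.

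Red cell genes moved in the other direction. Of 33 erythroid genes, 19 fell and none rose, 33 of 33 had a log2 fold change below 0, and the median was −0.488. Ahsp, which encodes the chaperone of free α-globin, was at 2850, 4322 and 5055 TPM with PBS and at 2043, 3034 and 3281 TPM with leptin (log2 fold change −0.69 ± 0.12, adjusted p = 0.00602). The enzymes of haem synthesis Urod (−0.46), Uros (−0.52), Alad, Cpox and Ppox fell, as did the transcription factors Gata1 (−0.45) and Klf1 (−0.59), the erythropoietin receptor Epor (−0.49), the transferrin receptor Tfrc (−0.50) and the carbonic anhydrase Car1 (−0.54). Globin itself was not called: Hbb-bs had a log2 fold change of −0.28 and an adjusted p of 0.249, and Alas2, the first enzyme of haem synthesis in red cells, −0.29 and 0.295. Summed over the list, the level ran from 165522 to 337471 TPM with PBS and from 186162 to 281299 TPM with leptin, so the groups overlapped in total.

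Among the genes named, the fall of lowest p was in Plek2, a pleckstrin family gene of erythroblasts. It was at 6.25, 8.93 and 11.97 TPM with PBS and at 2.75, 3.9 and 5.12 TPM with leptin, without overlap (log2 fold change −1.26 ± 0.14, adjusted p = 0.000575). Erfe, which encodes erythroferrone, the hormone by which erythroblasts lower hepcidin in the liver after erythropoietin, was at 1.04, 1.67 and 2.59 TPM with PBS and at 0.37, 0.59 and 1.16 TPM with leptin (−1.57 ± 0.22, adjusted p = 0.0022). Only 1 leptin library lay above the lowest PBS library. Erfe had means of 1.84 TPM with PBS and 0.658 TPM with leptin. It thus met the level of 1 TPM asked of named genes only through the PBS libraries. Plek2 kept its call in 32 of 32 alternative settings and Erfe in 31 of 32. The list count was less steady: it ran from 5, without KO PBS replicate 4, to 26, without KO PBS replicate 1, was 1 by limma on log2(TPM + 1) and 0 in the 100s mice alone, and the list median stayed between −0.603 and −0.26 in all of these.

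Other falls of lowest p among the genes named were in Noct, the clock-linked gene of nocturnin (−0.56 ± 0.07, adjusted p = 0.000633), in Trmo, a tRNA methyltransferase (−0.63), in the lysosomal protease Ctsf (−0.67), in Mss51 (−1.04) and in 6030468B19Rik (−1.02). Mss51 is known from skeletal muscle. Muscle genes as a list had 21 of 24 log2 fold changes below 0, with a median of −0.275 and 1 call (Casq1), and their summed level ran from 1526 to 5202 TPM with PBS and from 1520 to 5179 TPM with leptin. The part of muscle in single genes was not tested beyond a fit with a muscle score as covariate, which gave 134 genes with changes of at least 0.5. Of these 77 rose and 57 fell, against 81 and 84 without the score, so the loss was mostly among the falls.

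Proliferation genes fell slightly, in 6 of 24, with 24 of 24 below 0 and a median of −0.208. The called members were Ccnb1 and Cdk1, which drive entry into mitosis, Rrm2 and Tyms, which make nucleotides for DNA, and Pcna and Birc5. Rrm2 was at 130, 183.7 and 214 TPM with PBS and at 104, 152 and 180 TPM with leptin (log2 fold change −0.38 ± 0.10, adjusted p = 0.032). No member was called without WT leptin replicate 1, without WT PBS replicate 4 or without KO PBS replicate 4, nor in the 100s mice or the other mice alone.

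**Figure D3:**
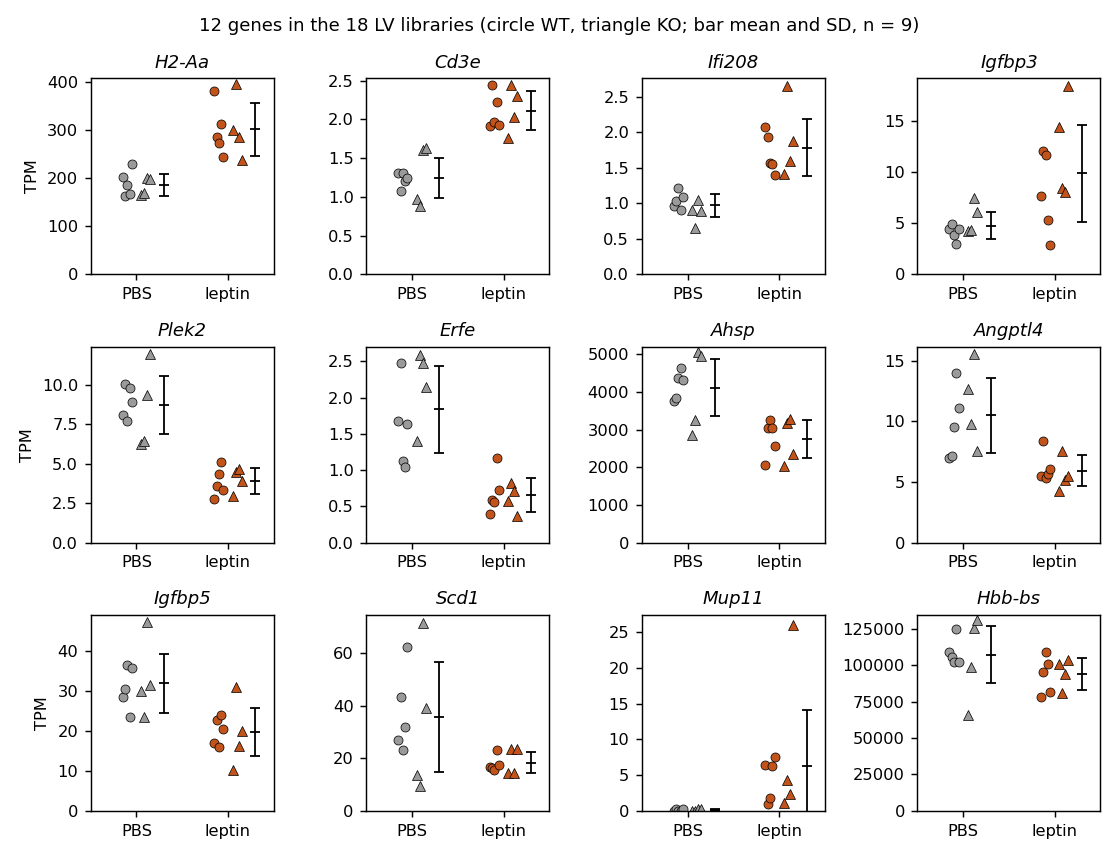
TPM of 12 genes in each LV library, PBS in grey and leptin in orange, with circles for WT and triangles for KO; bars give the mean and SD of 9 libraries, and the lower bar of Mup11 is cut at 0. H2-Aa, Cd3e, Ifi208, Plek2 and Mup11 do not overlap between treatments, whereas Hbb-bs does.

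A few adipocyte transcripts fell in LV. Of 25 adipocyte genes tested 6 fell and none rose, with a median of −0.318, and the count ran from 1 to 6 when single libraries were left out, being 1 without WT leptin replicate 1 or KO PBS replicate 4. In the 100s mice alone 0 were called by edgeR and the median was −0.079, and in the other mice 2 were called with a median of −0.344. Lep, the leptin gene, was read 110 times in the 9 PBS libraries, with 1 to 27 counts in each, and 0 times in the 9 leptin libraries. It was therefore at least 36.7-fold lower, taking 3 counts over the whole leptin group as the most that 0 allows. Retn, encoding the adipokine resistin, was at 1.84, 9.12 and 20.6 TPM with PBS and at 1.02, 2.33 and 6.64 TPM with leptin (log2 fold change −1.68 ± 0.46, adjusted p = 0.042). Thrsp, a lipogenic nuclear protein gene, fell by 1.02 on the log2 scale, the β3-adrenergic receptor gene Adrb3 by 1.65 from a median of 0.39 TPM, the fatty acid carrier Fabp4 by 0.42 and the monoacylglycerol lipase Mgll by 0.32. The calls of Mgll and Adrb3 were lost in 16 of 32 and 12 of 31 alternative settings.

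Genes that define the fat cell most strictly were not called. Adipoq had a log2 fold change of −0.51 ± 0.30 (adjusted p = 0.348) and Plin1 −1.48 ± 0.52 (adjusted p = 0.1), which gained a call in 3 of 32 alternative settings. The lipase gene Pnpla2 was at 17.5 to 30.4 TPM with PBS and at 21.9 to 35.0 TPM with leptin (0.13 ± 0.10, adjusted p = 0.51). G0s2, the inhibitor of ATGL, was at 31.7, 36.2 and 53.5 TPM with PBS and at 32.1, 37.9 and 47.6 TPM with leptin (−0.02 ± 0.13, adjusted p = 0.966). In CV of the same mice G0s2 fell by 1.94 on the log2 scale, and the difference of the LV effect from the CV effect was 2.05 (adjusted p = 0.0016). In LV with PBS Pnpla2 and G0s2 stood far above Plin1 (median 0.91 TPM), whereas in CV Pnpla2 and Plin1 had similar medians (224 and 227 TPM). The cells behind the LV reads were not tested, so these values do not show how G0s2 of fat cells responded in LV. The leptin receptor Lepr, a marker of marrow stroma, had a log2 fold change of 0.05 and an adjusted p of 0.742.

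Lipid synthesis genes were mixed in LV. Of 10 lipogenic genes, Me1, which supplies NADPH, fell by 0.81 on the log2 scale, and the desaturase Scd1 fell by 1.04, from 9.55, 32.1 and 71.4 TPM to 14.2, 16.6 and 23.7 TPM. Its paralogue Scd2, the form most prominent in brain, rose, from 11.9, 16.5 and 20.5 TPM to 17.1, 23.0 and 31.4 TPM (log2 fold change 0.41 ± 0.08, adjusted p = 0.0115). In CV, Scd2 moved by −0.45, and the effects differed by 0.87 (adjusted p = 4.1e-05). Fasn, the fatty acid synthase, had −0.44 and an adjusted p of 0.17 in LV. The Scd1 call was lost in 19 of 32 alternative settings and the PBS libraries carried most of its spread.

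Genes of fatty acid oxidation and fasting fell in 5 of 19 and rose in none, with a median of −0.247. Angptl4, a fasting-induced inhibitor of lipoprotein lipase, was at 7.0, 9.81 and 15.6 TPM with PBS and at 4.24, 5.54 and 8.41 TPM with leptin (log2 fold change −0.93 ± 0.16, adjusted p = 0.00602). Cpt1a, which admits fatty acids to the mitochondrion, fell by 0.50, its partner carrier Slc25a20 by 0.38, the droplet coat gene Plin2 by 0.27 and the uncoupling protein gene Ucp3 by 1.10. When single libraries were left out 2 to 4 of the 19 were called, limma on log2(TPM + 1) called 1, the 100s mice alone gave 0, and the calls of Plin2 and Ucp3 were each lost in 18 of 32 settings. In CV Angptl4 moved by 0.23 and Cpt1a by 0.21, and the LV effect lay below the CV effect for both (adjusted p = 0.0091 and 0.01). Cholesterol synthesis genes were higher in 20 of 22, with a median of 0.202 but a single call, the mevalonate kinase gene Mvk (0.32 ± 0.09, adjusted p = 0.0407). Between 0 and 4 of them were called when single libraries were left out. The LV effect lay above the CV effect in 8 of the 22 and below it in none. That count was 6 to 14 without single mice, reaching 14 without KO leptin replicate 4 and 12 without WT leptin replicate 4, and 1 in the 100s and 1 in the other mice.

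Bone and stroma showed little. Of 22 osteoblast and osteocyte genes 2 fell and none rose, against 3.42% of all genes tested that were lower. Log2 fold changes were above 0 in 19 of the 22. The 2 that fell were Sost, which encodes the Wnt inhibitor sclerostin, by 0.52 on the log2 scale (medians 8.63 and 6.29 TPM) and Fgf23, the phosphate hormone, by 0.80 (medians 0.51 and 0.29 TPM). These calls were lost in 19 and 25 of 32 alternative settings. The median of the list was 0.151, Col1a1 had a log2 fold change of 0.42 ± 0.24 (adjusted p = 0.334) and Bglap, encoding osteocalcin, 0.22 ± 0.30 (adjusted p = 0.739). Of 16 osteoclast genes only Car2 was called, lower by 0.52, and Car2 is also abundant in red cells, whereas Acp5 and Ctsk, more specific to osteoclasts, had 0.09 and 0.21 with adjusted p of 0.736 and 0.406. Cartilage genes (18), stromal niche genes (12), thermogenic genes (8) and nerve and spinal cord genes (10) had 0 calls by edgeR, with 4, 1, 1 and 0 at an unadjusted p of 0.05 and 1, 1, 1 and 0 called by DESeq2. The stromal chemokine Cxcl12 had a log2 fold change of −0.13.

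Growth factor binding proteins changed in opposite directions. Igfbp3, the main carrier of IGF in blood, was at 2.95, 4.42 and 7.49 TPM with PBS and at 2.86, 8.46 and 18.35 TPM with leptin (log2 fold change 0.99 ± 0.25, adjusted p = 0.0298), with 1 leptin library below every PBS library. In CV it moved by −0.22, and the effects differed by 1.14 (adjusted p = 0.0052). Igfbp5, a binding protein of bone matrix and stroma, was at 23.4, 30.6 and 47.1 TPM with PBS and at 10.2, 20.1 and 31.0 TPM with leptin (−0.80 ± 0.13, adjusted p = 0.00358), and moved by −1.07 in CV. Pik3ip1, an inhibitor of PI3 kinase in lymphocytes and other cells, rose by 0.43. Of the 21 genes of insulin, IGF and leptin signalling these were the 3 called. Endothelial genes were called in 1 of 16, against 5.41% of all genes tested. The gene called was Ackr1, a chemokine-binding receptor, which fell by 0.44 in LV and rose by 0.70 in CV (difference −1.15, adjusted p = 0.01). The cells behind the Ackr1 reads were not tested. Among 12 stem and progenitor genes Ly6a, encoding Sca-1, rose by 0.54, and among 14 megakaryocyte genes Thbs1 fell by 0.29. Thbs1 was the only megakaryocyte gene called, but 14 of 14 had a log2 fold change below 0. Their median was −0.207, and 12 had an unadjusted p below 0.05. DESeq2 called 3 of them and a mouse series term 7, all lower, and 0 to 3 were called without single libraries.

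Among the genes named, the largest rise was in genes of the liver and urine protein families, at very low levels. Mup11, a major urinary protein gene, was read 22 times in the 9 PBS libraries, of which 5 held 0, and 1210 times in the 9 leptin libraries, with 21 to 556 in each (54.9-fold higher after scaling to library size). In TPM it was at 0, 0 and 0.32 with PBS and at 1.0, 4.32 and 26.03 with leptin, without overlap (adjusted p = 0.00208), and its call held in 32 of 32 settings. Its means were 0.108 TPM with PBS and 6.32 TPM with leptin. Mup11 thus met the level of 1 TPM asked of named genes only through the leptin libraries, and its rank among them rests on that. Of 16 major urinary protein genes tested, a list chosen after the data had been seen, 3 rose (Mup11, Mup19 and Mup22). The hepcidin copy Hamp2 was read 7 times in the 9 PBS libraries and 123 times in the 9 leptin libraries, with 2 to 54 in each of the latter. No test value is given for Hamp2. The hepcidin gene Hamp was tested and was not called in LV. Nor was it called in any of 30 alternative settings, in which its log2 fold change ran from −0.01 to 1.7373. Reads of these near-identical genes can be assigned to the wrong copy, so the member names are uncertain. Of 10 hepatocyte genes 0 were called by edgeR, with 0 at an unadjusted p of 0.05 and a median of 0.972, and DESeq2 gave an adjusted p to only 2 of them and called 0. Their summed level ran from 5.48 to 22.2 TPM with PBS and from 4.17 to 40.1 TPM with leptin. Alb was at 0 to 3.69 TPM with PBS and at 0 to 11.4 TPM with leptin, and it was at 0.41 TPM in KO leptin replicate 4, where Mup11 was highest. In iWAT of WT mice Mup11 had means of 45.1 TPM with PBS and 4659 TPM with leptin, and in CV of 0.578 and 1.40 TPM. The part of other tissues or libraries in the LV reads was not tested.

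Lists of mature and immature myeloid cells held no calls. Late neutrophil genes were called in 0 of 18, early neutrophil genes in 0 of 10, monocyte and macrophage genes in 0 of 23, and eosinophil, basophil and mast cell genes in 0 of 14 by edgeR. Csf3r, the receptor for granulocyte colony-stimulating factor, was at 81.9, 96.4 and 128 TPM with PBS and at 97.0, 116 and 135 TPM with leptin (log2 fold change 0.16 ± 0.07, adjusted p = 0.166). Irf8, the transcription factor of monocytes, had 0.22 ± 0.08 and an adjusted p of 0.109. At an unadjusted p of 0.05 these lists had 0, 3, 3 and 1 genes, and DESeq2 called 0 in each. Log2 fold changes were above 0 in 12 of 18, 10 of 10, 19 of 23 and 12 of 14, with medians of 0.035, 0.194, 0.115 and 0.12. A mouse series term called 2 monocyte and macrophage genes, both higher. Glucocorticoid-response genes were called in 0 of 19, with Fkbp5 at 0.22 ± 0.14 (adjusted p = 0.392) and Tsc22d3 at 0.26 ± 0.15 (adjusted p = 0.337), and clock genes in 0 of 16. Each of these had 3 genes at an unadjusted p of 0.05, and DESeq2 called 1 glucocorticoid-response gene and 0 clock genes.

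Set against CV of the same mice, the effect in LV differed in 1214 of 14873 genes (8.16%), lying above it in 422 (2.84%) and below it in 792 (5.33%), while CV had 1999 genes (13.4%) at adjusted p, 6.82% of genes tested being higher and 6.62% lower with leptin, and LV 805. LV libraries were the deeper, at 28717516 to 29757254 counts. CV libraries of the series held 16100377 to 19364106 and iWAT libraries 17638318 to 19100698. The part of depth in differences between tissues was not tested. The proliferation list differed between the sites. In LV 6 of 24 fell with a median of −0.208, in CV 19 of 24 rose with a median of 0.885, and the LV effect lay below the CV effect in 22 of 24. Cdk1 moved by −0.23 in LV and by 1.23 in CV, with a difference of −1.49 (adjusted p = 0.0014), although its mean level was 1.63 TPM in PBS libraries of CV against a median of 42.3 TPM in LV. Osteoclast genes lay below in 10 of 16, with Ctsk at 0.21 in LV and 1.26 in CV. Erythroid genes lay below in 7 of 33, Hbb-bs at −0.28 in LV and 1.60 in CV (difference −1.80, adjusted p = 0.0062). The erythroid count was 6 to 12 without single mice, being 12 without KO PBS replicate 1 and 11 without WT leptin replicate 3. In the 100s alone 0 proliferation, 0 osteoclast and 0 erythroid genes differed by edgeR, with median differences of −0.76, −0.709 and −0.154, and in the other mice 17, 6 and 2, with medians of −1.168, −0.911 and −0.603.

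**Figure D4:**
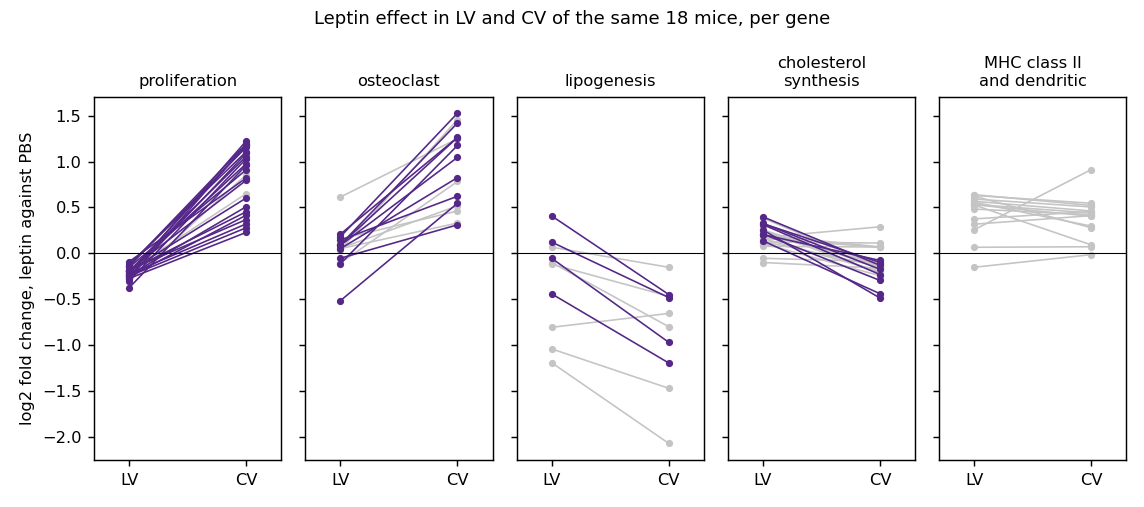
Log2 fold changes of leptin against PBS in LV and in CV of the same 18 mice for the members of 5 gene lists, 1 line per gene; purple lines are genes whose LV and CV effects differed at an adjusted p of 0.05. Proliferation and osteoclast genes lie near 0 in LV and above it in CV, while 14 of 15 MHC class II and dendritic cell genes lie above 0 in LV.

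Of 15 MHC class II and dendritic cell genes, 6 rose in CV with a median of 0.422, and 0 differed between LV and CV by edgeR, with 2 at an unadjusted p of 0.05. For H2-Aa the LV effect minus the CV effect was 0.09 (adjusted p = 0.82). T and NK cell genes had a median of 0.507 in CV with 4 of 26 called, and 2 lay lower in LV. Adipocyte genes fell in 16 of 25 in CV, with a median of −0.688, and the LV effect lay above it in 6 and below it in 1, Adrb3. The genes that differed most by the naming rule were, above the CV effect, Nnat (3.14), Glb1l2 (2.29), G0s2 (2.05), Igfals (1.97) and Tshr (1.94), all of which fell in CV and were not called in LV. Below it were Hamp (−4.25), H2ac15 (−2.85), Lrr1 (−2.18), Madcam1 (−2.08) and H3c1 (−2.00), none called in LV. Many of these were barely read at 1 of the sites: mean levels in LV with PBS were 0.268 TPM for Hamp, 0.0633 for Madcam1, 0.143 for Glb1l2 and 0.188 for Igfals, so for these the LV effect rests on few counts, and Lrr1 and H2ac15 had means of 0.122 and 0.0378 TPM in CV with PBS. Madcam1, an adhesion molecule for lymphocytes, had a median of 0.05 TPM with PBS and 0.08 TPM with leptin in LV, and means of 9.47 and 47.2 TPM in CV.

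The effect in LV of WT mice differed from that in their iWAT in 2268 genes (15.2%), above in 1364 (9.17%) and below in 904 (6.08%). The named genes above it were Nnat (6.33), Hephl1 (5.86), Npr3 (5.25), Trim10 (4.21) and Tshr (4.19), and those below it Ppp1r3g (−6.41), Mup1 (−6.33), Mup15 (−6.09), Mup17 (−4.94) and D630039A03Rik (−4.56). Except for Trim10, an erythroid gene that fell by 0.59 in LV, all were at or below 1.82 TPM in each LV library, so these differences describe changes in fat against genes barely read in LV. Trim10 was barely read in iWAT, with a mean of 0.11 TPM with PBS and listed at 0 with leptin, so its difference rests on few counts there. Npr3, the natriuretic peptide clearance receptor, fell from a mean of 66.8 to 2.06 TPM in iWAT and was at 0.1 to 0.6 TPM in leptin libraries of LV.

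Neither genotype alone gave calls. Within WT mice alone (5 against 5) 0 genes passed the adjusted p in edgeR, with 2183 (14.7%) at an unadjusted p of 0.05, and DESeq2 called 142 genes that changed by at least 0.5. Within KO mice alone (4 against 4) the counts were 0, 1331 (8.95%) and 72. The difference of the KO effect from the WT effect was called in 0 genes, with 294 (1.98%) at an unadjusted p of 0.05 and 1 by DESeq2. H2-Aa rose by 0.61 ± 0.108 in WT and by 0.59 ± 0.1284 in KO (difference 0.00 ± 0.1742), and Plek2 fell by 1.27 ± 0.1754 and by 1.23 ± 0.2168 on the log2 scale (difference 0.06 ± 0.2905). Erfe had the wider gap, −1.24 in WT and −1.95 in KO, with a difference of −0.69 ± 0.4135. Neither that difference nor any other between genotypes was called by edgeR.

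Within the mouse series the main lists lay on the same side of 0. The values are differences of plain means with no genotype term, and genotype was unevenly spread within series. The median difference of the MHC class II list came to 0.682 among 100s mice and to 0.313 among 600s mice, that of T and NK cells 0.461 and 0.298, that of mature B cells 0.275 and 0.282, and that of erythroid genes −0.333 and −0.542. H2-Aa differed by 0.80 in the 100s and 0.34 in the 600s, and Plek2 by −1.15 and −1.40. Muscle genes differed by −0.459 and −0.607, and nerve genes by 0.531 and −0.741, on opposite sides of 0. Fitting the series as a term raised the number of genes at adjusted p from 805 to 1503.

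**Figure D5:**
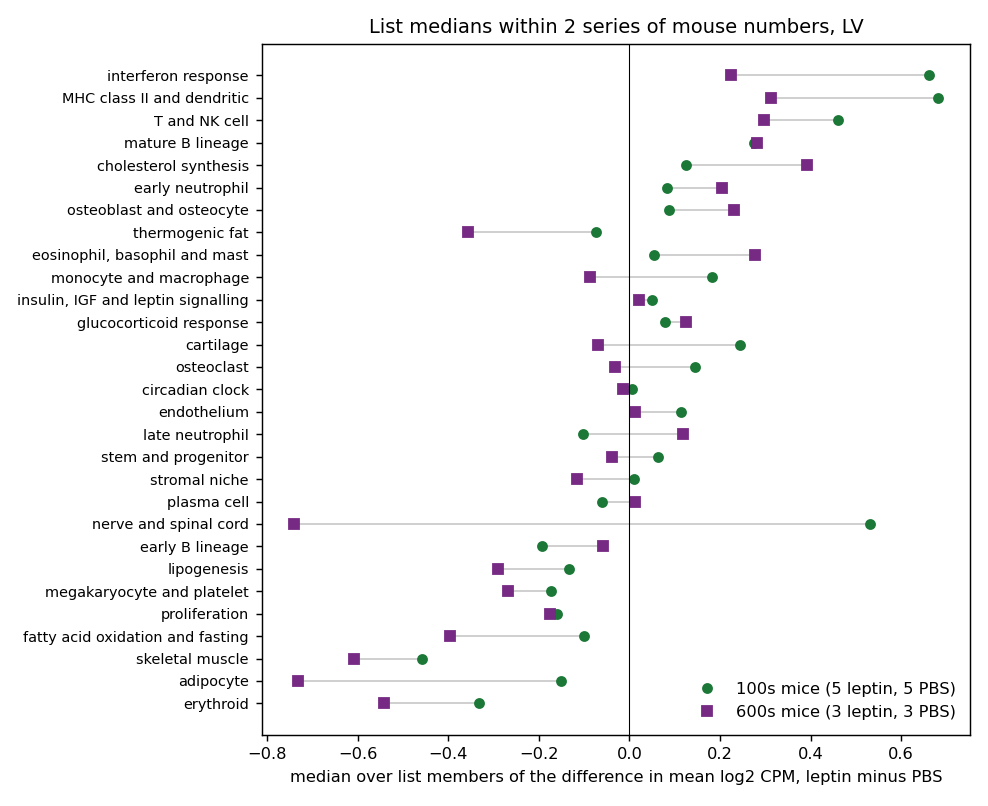
Median over the members of each list of the difference in mean log2 CPM (counts scaled to library size), leptin minus PBS, within the 100s mice (5 against 5, circles) and the 600s mice (3 against 3, squares) of LV. Lists at the top lie above 0 and the erythroid list below 0 in both series, whereas the nerve and spinal cord list lies on opposite sides.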

How the data were processed

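Total RNA of 79 tissue samples was enriched with oligo dT and sequenced as paired reads of 100 bases on DNBSEQ, per the labels and the study's methods. The authors filtered reads with SOAPnuke, used HISAT and Bowtie2 against GRCm38.p6 (the processing notes also name GRCm39), and deposited 1 table of counts per gene and 1 of TPM values. The counting tool is not given in the sources used here. The deposited counts are expected counts, of which 51 values were not whole, and were rounded. The files held 74693 features, of which 39063 had a gene ID, and the 14873 genes averaging 0.4 TPM or more across the series were tested.

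Samples were grouped by title, tissue, genotype and treatment. Leptin was compared with PBS over 18 LV libraries in edgeR 4.0.16 (R 4.3.3), with TMM factors, the quasi-likelihood test and genotype as a covariate. The same design was used for each genotype alone, for the difference of the genotypes' effects, for CV, and, with LV and CV (or WT LV and iWAT) in 1 fit with mouse as a block, for the difference between tissues. P-values were two-sided and adjusted over all genes tested by Benjamini-Hochberg. A gene was called at an adjusted p below 0.05, and DEGs also changed by at least 0.5 on the log2 scale. TPM values served for levels only. Genes named were the 10 rises and 10 falls of largest change among DEGs with a mean of at least 1 TPM and no overlap of TPM, filled by lowest p (8 rises and 1 fall had no overlap), up to 4 called genes of lowest p in each list or up to 2 where none was called, 11 genes of lipolysis, leptin and glucocorticoid action, and up to 5 genes each way for each difference. Cd74 and other genes given beside them were chosen after their values were seen. The members and gene lists were chosen with earlier results of these data known, and 6 lists (major urinary protein, hepatocyte, class II regulators, GIMAP, proteasome, ribosome assembly) after these data were seen. Some genes that the rule named are not reported here and were not replaced. No sequence from chromosome 18 is printed.

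Alternatives were DESeq2 1.42.0, RLE factors, 3 other filters, limma 3.58.1 on log2(TPM + 1) and log2(TPM + 0.1), series, muscle and replicate terms, other forms of the genotype term, and leaving out each library. Fits within the 100s or without them were added after the data were seen. The procedure was tested on simulated counts. Samples in a group came from separate mice. Counting error at 28717516 to 29757254 counts per library is the limit only for genes with few counts.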

Additional observations from a re-analysis of the deposited data

Results flagged for a closer look

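In 26 of 360 sets of 4 or 5 libraries, 1 library stood apart from the rest of its group by Dixon's ratio, which happens by chance in about 1 in 20 sets. KO leptin replicate 2 was the lone high library for Pctp (7.78 TPM, others at most 5.01), Trim30d (9.22, at most 5.8), Cd22 (13.28, at most 7.32), Cxcr5 (8.7, at most 5.7), Bank1 (10.44, at most 6.4), Ddx58 (10.26, at most 6.63) and Ifit3 (12.91, at most 7.17). KO leptin replicate 4 stood alone for Mup11 (26.03 TPM, others at most 4.32), Elovl3 (1.2, at most 0.11) and Ucp3 (1.35, at most 0.51), and KO leptin replicate 1 was low for Car1 (150.49 TPM, others at least 273.21). Among KO PBS libraries, replicate 1 was high for Csf3r (127.77 TPM, others at most 96.44) and replicate 3 for Cpt1a (25.93, at most 17.59). Among WT leptin libraries, replicate 4 was high for Thbs1 (65.72 TPM, others at most 51.87), Scd1 (23.2, at most 17.41) and Casq1 (27.99, at most 13.28), and replicate 1 for Mvk (8.84, at most 6.82) and Oasl2 (21.04, at most 10.37). Replicate 2 was high for Angptl4 (8.41 TPM, others at most 6.04) and H3c1 (3.8, at most 2.04), replicate 5 for Plin1 (1.08, at most 0.37), and replicate 3 was low for Cry1 (6.93, at least 7.96). Among WT PBS libraries, replicate 4 was high for Car2 (1197.97 TPM, others at most 1079.55) and low for Mvk (3.46, at least 5.37), replicate 5 was high for Pnpla2 (30.38, at most 22.91), and replicate 3 for Hamp (1.62, at most 0.19).

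The effect of leptin differed between LV and CV of the same mice, by the test of the difference itself, in 33 of the 107 genes named. The log2 effect in LV minus that in CV was below 0 for Plek2 (−0.9732), Noct (−0.5775), Erfe (−1.6065), Trmo (−0.7219), Ctsf (−0.5967), Adrb3 (−2.1945), Ackr1 (−1.149), Car2 (−1.0102), Ccnb1 (−1.4928), Tyms (−0.6639), Rrm2 (−1.3623), Cdk1 (−1.4927), Angptl4 (−1.0711), Cpt1a (−0.6833), Madcam1 (−2.0799), Hamp (−4.2492), H2ac15 (−2.8527), Lrr1 (−2.1823) and H3c1 (−1.9993). It was above 0 for Mgll (1.2911), Col10a1 (1.8308), Ly6a (0.7978), Nr1d2 (0.362), Scd2 (0.8692), Mvk (0.4243), Ddx58 (0.3661), Igfbp3 (1.1426), G0s2 (2.0547), Npr3 (1.1068), Tshr (1.9398), Igfals (1.9731), Glb1l2 (2.2909) and Nnat (3.1387).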

How the results depend on the processing

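Calls rested on a pooled spread over 18 mice, and single libraries moved them. DEGs in LV made up 1.11% of genes tested, and 0.269% and 0.437% by limma on log2(TPM + 1) and log2(TPM + 0.1), 0.276% in the 100s mice alone, 0.235% in the others and 0.155% when a change of 1 on the log2 scale was asked for. Leaving out 1 library gave 0.578% (without WT PBS replicate 4) to 1.24% (without KO PBS replicate 1), and the share also fell by over 1.5 times without KO PBS replicate 4 (0.592%), WT leptin replicate 1 (0.625%), KO leptin replicate 1 (0.632%) and KO leptin replicate 2 (0.719%). Genes at adjusted p numbered 805, and 1348 by DESeq2, 131 and 126 by limma, 1503 with a series term, 54 in the 100s mice, 41 in the others, and 295 to 955 without 1 library. WT DEGs (0) became 142 by DESeq2, 9 without a filter, 2 and 3 by limma, 78 with a series term, 1 with a muscle term, and 0 to 4 without 1 library. KO DEGs (0) became 72 by DESeq2, 2 with a series term and 0 to 1 without 1 library, and genes whose effect differed between genotypes (0) became 1 by DESeq2. Genes that differed between LV and CV (1214) became 46 in the 100s mice, 279 in the others and 745 to 1333 without 1 mouse, and those that differed between LV and iWAT (2268) 1510 to 2981. With a replicate block there were 151 DEGs (1.02%) and 672 genes at adjusted p, and 0 for WT, KO and their difference. Deviations of same-numbered libraries correlated at −0.421 to 0.459, so the numbers did not pair the mice. The cause of these shifts was not tested.

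Over all settings the called genes gave 1537 values on the same side of the threshold, 381 that lost the call and 0 that changed sign, and uncalled genes gave 33 that gained a call and 21 that changed sign. In the 100s mice these were Cxcr2 (−0.0192), Gfap (0.0269), Adipoq (0.0671), Acvr1c (0.1989), Nnat (0.4858), Ppp1r3g (−0.7726) and Mup1 (−0.2631). In the other mice they were G0s2 (0.05), Madcam1 (−0.3124) and Igfals (−0.2651), and by limma G0s2 (0.0687 and 0.0704), where the median of all genes was 0.0595 and 0.0821. Without 1 library, G0s2 ran from −0.0868 to 0.0802, Hamp from −0.0100 to 1.7373, Ppp1r3g from −0.0761 to 1.3268 and Hephl1 from −0.2487 to 0.9314.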

Other observations

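Genes of protein synthesis and breakdown, which belong to no comparison above, moved a little and in 1 direction. Of 33 proteasome subunits, 12 fell and none rose in LV with leptin, 33 of 33 log2 fold changes were below 0 and the median was −0.135. Of 28 ribosome assembly factors, 15 fell and none rose, 28 of 28 were below 0 and the median was −0.177, with Lyar, Gnl3, Nop56 and Nop58 among the 15. The LV effect lay below the CV effect in 12 of the 28 and in 1 of the 33. Both lists were chosen after the data had been seen. When single libraries were left out, the counts ran from 3 to 13 for the proteasome and from 4 to 17 for ribosome assembly, both lowest without WT leptin replicate 1, and limma on log2(TPM + 1) called 0 in each.

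Of 8 genes of the GIMAP family, GTPases of lymphocytes, 5 rose (Gimap3, Gimap4, Gimap6, Gimap7 and Gimap8), none fell and the median was 0.346. Their summed level was 75.5 to 114 TPM with PBS and 102 to 157 TPM with leptin. This list too was chosen after the data had been seen, and its genes share sequence with each other.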
